A study of Rattus norvegicus with 18 samples.

Results

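The proteases stored in mast cell granules were followed in medullary thyroid carcinomas of rats, which arise from the thyroid's C cells, the source of calcitonin. The genes were taken by their symbol in the platform annotation: Cpa3 and Cma1, with Tpsab1, Tpsb2, Mcpt4 and Ms4a2 added. All 6 had a probe set, 1 each, among 14506 genes with a symbol of their own. Cpa3 and Cma1 were chosen by their own log2 values in these arrays, which were lower in old than in young heterozygous tumours, so that comparison is described here without a test for the 6 genes.

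The study measured RNA of 18 tumours, 1 array each, in 3 groups of 6. The first group came from rats homozygous for a mutant Cdkn1b, the gene of the cell cycle inhibitor p27Kip1, at 9 months of age, the second from heterozygous mutants at 18 months and the third from heterozygous mutants at 9 months. All animals belonged to the MENX model on a mixed Sprague–Dawley white eye/Wistar–Kyoto background, were kept free of specific pathogens and received no treatment. Every group carries the mutant allele in the germ line, and neither wild-type tumours nor normal thyroid were analysed here. The labels give each array a code of its own but no sex, litter or array date. They do not say outright that each array is a separate rat, and otherwise p-values measure only the spread between these samples, which may be technical.

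Mast cells are long-lived tissue immune cells that grow under Kit ligand and are found in connective tissue near vessels. They store serine proteases and a carboxypeptidase in granules, bound to the proteoglycan serglycin, and release them when antigen cross-links IgE on the high-affinity receptor. Cpa3 encodes carboxypeptidase A3 and Cma1 a chymase, both typical of connective tissue mast cells in rodents. Tpsab1 and Tpsb2 encode tryptases, Mcpt4 a further chymase-like protease, and Ms4a2 the beta chain of the high-affinity IgE receptor.

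The stretches upstream of 3 granule protease genes are shown because the factor Gata2, known to drive mast cell genes, binds short GATA motifs. They are the 250 bases before the annotated start in RefSeq (build GRCr8), written 5′ to 3′ along the gene, with each match on either strand to AGATAA or AGATAG as well as TGATAA or TGATAG in capitals. Mcpt1l1, whose RefSeq synonyms include rMCP-1, is a granule chymase gene outside the 6. The stretches are chr2:104673238-104673487 for Cpa3, chr15:33390134-33390383 for Cma1 and chr15:33876896-33877145 for Mcpt1l1, all on the minus strand.
Cpa3: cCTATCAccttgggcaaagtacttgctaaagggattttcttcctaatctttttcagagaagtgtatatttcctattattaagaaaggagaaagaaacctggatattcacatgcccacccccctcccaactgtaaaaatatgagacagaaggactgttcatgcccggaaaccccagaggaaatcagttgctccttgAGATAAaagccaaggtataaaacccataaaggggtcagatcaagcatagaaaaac
Cma1: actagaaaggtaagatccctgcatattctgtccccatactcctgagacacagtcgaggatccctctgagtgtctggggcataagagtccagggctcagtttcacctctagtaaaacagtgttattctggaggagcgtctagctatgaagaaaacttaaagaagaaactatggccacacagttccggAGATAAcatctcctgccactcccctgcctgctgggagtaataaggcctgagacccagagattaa
Mcpt1l1: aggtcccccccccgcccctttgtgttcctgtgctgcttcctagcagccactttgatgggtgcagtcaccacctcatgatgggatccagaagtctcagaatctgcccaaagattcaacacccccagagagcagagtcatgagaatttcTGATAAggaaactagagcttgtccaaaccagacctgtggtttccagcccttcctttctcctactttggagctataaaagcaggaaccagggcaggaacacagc
Cpa3 held AGATAA at position -55 and a second match at -249 (positions count back from the start), Cma1 held AGATAA at -64, and Mcpt1l1 held TGATAA at -103. Mcpt4 had matches at -196 and -121, and Tpsab1 and Tpsb2 had none. Of 33469 promoters of this length 27.0% held at least 1 match. The E box letters CATGTG or CACGTG, read on both strands and bound by the mast cell factor Mitf, were found upstream of Cpa3 at -144 and of Tpsb2 at -209, and in 17.1% of all promoters. A match is a run of letters and no measured binding site, and no match says only that these letters are not in this window. Sequences were found for 6 of the 7 genes, and Ms4a2 is given by name only.

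The values are log2 intensities, on which a difference of 1 is a doubling. They carry no detection call, and levels of different probe sets are not comparable. Genes were tested where their mean over the 18 arrays was at least 6.32 (the 30th percentile over probe sets), as it was for 11370. Cpa3 (8.12), Tpsab1 (7.21), Tpsb2 (7.11) and Cma1 (6.55) passed. Ms4a2 (5.86) and Mcpt4 (3.86) did not and have no test. Cma1 lay just inside this limit and Ms4a2 just outside it.

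Calca, the calcitonin gene and marker of C cells, was near the top of the scale throughout, averaging 13.91 ± 0.09 in homozygous, 14.06 ± 0.05 in 18-month heterozygous and 13.82 ± 0.06 in 9-month heterozygous tumours (SD, n = 6 each). Tg, the thyroglobulin gene of follicular cells, averaged 14.29 ± 0.06, 13.60 ± 1.25 and 14.34 ± 0.03 in the same order of groups. Old tumours 1, 2, 3 and 6 stood apart on a first principal component of 63.9% of the variance, at 35.8 to 69.9. Old replicates 4 and 5 lay at -11.7 and 4.2, and homozygous replicate 3 at 24.0, while the other 11 tumours of 9 months lay between -28.6 and -9.7. Values without these arrays are given below where they end a call or move a difference by over 1.5 times, and for Cpa3 and Cma1. In bulk tissue, fewer mast cells and less RNA per mast cell cannot be told apart.

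Cpa3 was highest in young heterozygous tumours, slightly lower in homozygous ones and lowest in old heterozygous ones. Its lowest, median and highest values were 7.73, 8.43 and 8.63 in homozygous tumours, 6.40, 7.32 and 8.37 in 18-month heterozygous tumours and 8.42, 8.76 and 8.88 in 9-month heterozygous tumours. All 6 old tumours lay below every young heterozygous tumour, the highest old one by a narrow margin. The 2 groups were likewise free of overlap, with the older one lower, for 9% of the 11370 genes tested, with the older one higher for 9.07% and in either direction for 18.1%. By limma, 44.1% of genes differed between these groups at an adjusted p under 0.05. The means were 7.36 ± 0.70 at 18 months and 8.70 ± 0.18 at 9 months (SD, n = 6 each), a difference of -1.33 (SE 0.25), or 0.397 times the 9-month level. Within the old group replicate 1 was lowest and replicates 4 and 5 were highest, at 8.37 and 7.87. Without these 2 arrays the difference was -1.71 (SE 0.20).

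Cma1 showed the same order of groups. Its lowest, median and highest values were 6.39, 6.74 and 6.94 in homozygous tumours, 5.51, 5.71 and 6.91 in 18-month heterozygous tumours and 6.65, 6.90 and 7.32 in 9-month heterozygous tumours. Here 5 of 6 old tumours lay below every young heterozygous one, and replicate 4, at 6.91, lay among them. Partial counts such as this are given here and below without a share over all genes. The means of 5.98 ± 0.58 at 18 months and 6.95 ± 0.24 at 9 months (SD, n = 6 each) differed by -0.97 (SE 0.21), and by -1.33 (SE 0.12) without replicates 4 and 5. Replicates 1, 2 and 6 of the old group lay close together, at 5.55, 5.51 and 5.59. Those 3 values and that of old replicate 3 (5.84) were below the limit that the mean of a gene had to reach for testing. The old group's mean of 5.98 was below it too. The means of the homozygous (6.73) and 9-month heterozygous tumours (6.95) were above that limit, so Cma1 passed through the 9-month groups.

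**Figure D1:**
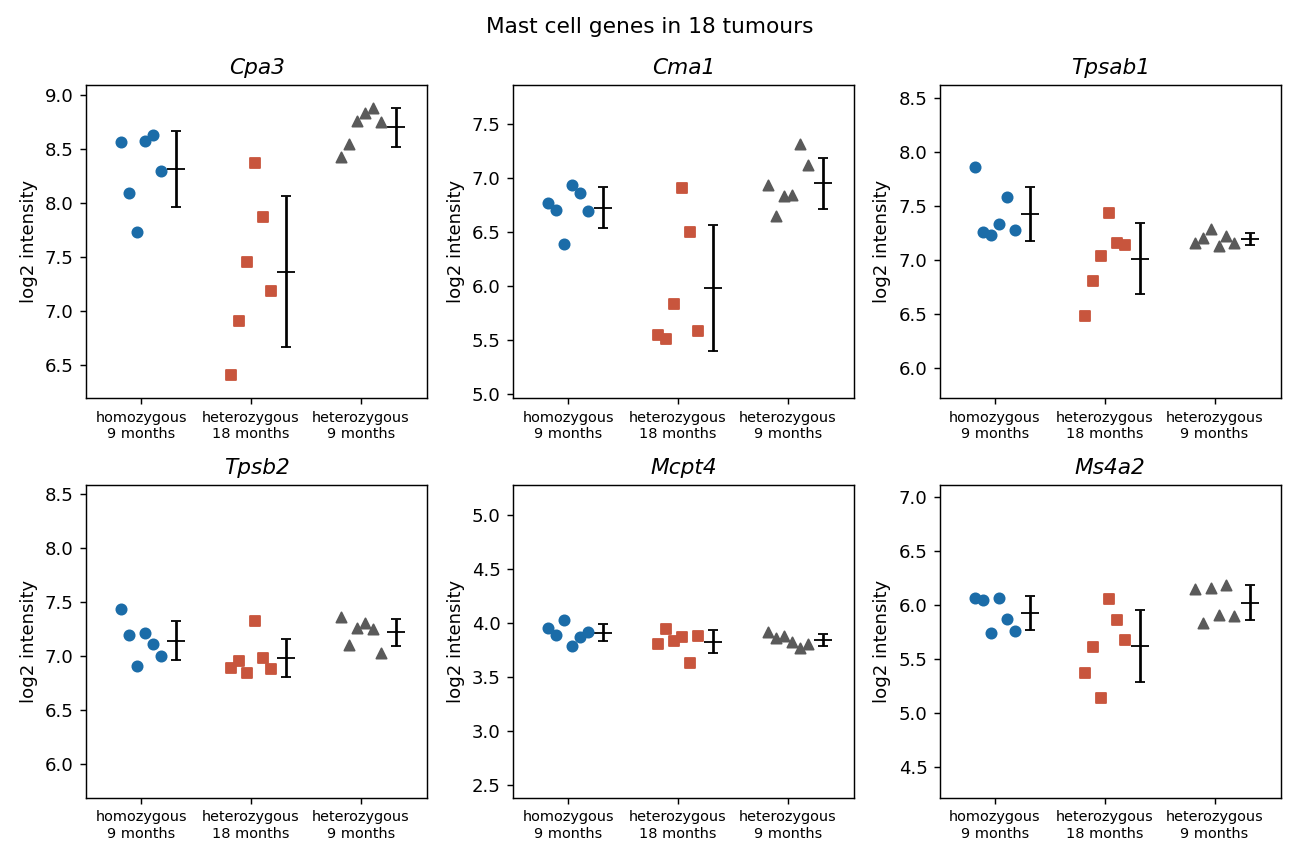
Log2 intensity of the 6 genes in each tumour, with homozygous tumours of 9 months, heterozygous tumours of 18 months and heterozygous tumours of 9 months from left to right (6 points each; bar, mean ± SD; every panel spans the same range of log2 units). Cpa3 and Cma1 spread widely at 18 months, with Cpa3 between 6.40 and 8.37, while the tryptases Tpsab1 and Tpsb2 lie closer together and Mcpt4 stays near the bottom of the scale.

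The tryptases differed less. Tpsb2 measured 6.91, 7.15 and 7.43 (lowest, median, highest) in homozygous tumours, 6.84, 6.92 and 7.32 in 18-month heterozygous tumours and 7.03, 7.26 and 7.36 in 9-month heterozygous tumours. Its difference between old and young heterozygous tumours was -0.24 (SE 0.09), with 5 of 6 old tumours below all young ones and replicate 4 alone near the top. Tpsab1 measured 7.23, 7.30 and 7.86 in homozygous, 6.48, 7.09 and 7.43 in 18-month heterozygous and 7.13, 7.18 and 7.29 in 9-month heterozygous tumours. Old tumours lay on both sides of the narrow young range, 3 below and 1 above it, and the difference was -0.19 (SE 0.13). It was -0.33 (SE 0.13) without replicates 4 and 5, and -0.08 without replicate 1, the lowest. The 2 tryptase genes are close paralogues on chromosome 10, and the sources used here do not give how far their probes tell them apart.

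Ms4a2, the IgE receptor chain, measured 5.74, 5.96 and 6.07 in homozygous tumours, 5.14, 5.64 and 6.06 in 18-month heterozygous tumours and 5.83, 6.03 and 6.19 in 9-month heterozygous tumours. The old and young heterozygous tumours differed by -0.40 (SE 0.13) in a fit without the filter, and 4 of 6 old tumours lay below all young ones. Mcpt4 ranged from 3.79 to 4.03 in homozygous, from 3.63 to 3.94 in 18-month heterozygous and from 3.77 to 3.92 in 9-month heterozygous tumours. The lowest value on any array was 3.19, and the age difference of Mcpt4 was -0.01 (SE 0.06), with either sign when single arrays were left out (-0.037 to 0.025).

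The comparison of homozygous with heterozygous tumours at 9 months played no part in choosing the genes, although it uses the same young heterozygous arrays. None of the 4 genes tested passed, and limma called 0 of 11370 genes (0%), with 995 at an unadjusted p under 0.05. Cpa3 averaged 8.31 ± 0.35 in homozygous and 8.70 ± 0.18 in heterozygous tumours (SD, n = 6 each), a difference of -0.38 with a 95% interval of -0.92 to 0.15 (limma adjusted p = 0.653). In 3 of 6 homozygous tumours Cpa3 lay below every heterozygous one, and the groups did not overlap at all for 1.57% of the genes tested. Without homozygous replicate 3, the lowest, the difference was -0.27 for Cpa3 and -0.16 for Cma1. Cma1 differed by -0.23 (95% interval -0.66 to 0.21, limma adjusted p = 0.752), Tpsb2 by -0.07 (-0.27 to 0.12, adjusted p = 0.822) and Tpsab1 by 0.23 (-0.05 to 0.51, adjusted p = 0.614). The Tpsb2 difference was -0.03 without homozygous replicate 3, -0.05 without homozygous replicate 6 or young heterozygous replicate 1, and -0.13 without homozygous replicate 1. Tpsab1 had the opposite sign, with homozygous replicates 1 and 5 highest at 7.86 and 7.58, and without replicate 1 the difference was 0.14. Outside the test, Ms4a2 differed by -0.10 and Mcpt4 by 0.07. Without homozygous replicate 3 they were at -0.06 and 0.05, and Ms4a2 was at -0.06 without homozygous replicate 6 and at -0.065 without young heterozygous replicate 5. These intervals use 1 spread per gene, shared by all 3 groups. That of Cpa3 thus also carries the wider spread of the old group (SD 0.70), which lies outside this comparison. The interval of Cpa3 reaches -0.92 and that of Tpsb2 includes its age difference, so equal levels in the genotypes are not shown.

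Homozygous tumours of 9 months and heterozygous tumours of 18 months share arrays with both comparisons above and are given as values only. Limma called 29.8% of all genes between these groups, and the groups did not overlap for 2.25%, with homozygous tumours higher for 1.26%. Cpa3 was 0.95 (SE 0.25) higher in the homozygous group and Cma1 0.75 (SE 0.21), while Tpsab1 was 0.42 (SE 0.13), Ms4a2 0.31 (SE 0.13), Tpsb2 0.17 (SE 0.09) and Mcpt4 0.09 (SE 0.06) higher. Without replicates 4 and 5 of the old group Cpa3 was 1.33, Cma1 1.11, Tpsab1 0.56, Ms4a2 0.47, Tpsb2 0.25 and Mcpt4 0.05 higher. Mcpt4 was also 0.05 higher without old replicate 5 alone, and Tpsb2 0.11 higher without homozygous replicate 1. Without homozygous replicate 3 Cpa3 was 1.07 and Cma1 0.81 higher. The ranges of Cpa3 overlapped, with 3 of 6 homozygous tumours above all old ones, and those of Cma1 with 1 of 6.

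Within groups, where a difference between group means plays no part, no relation among the 6 genes passed adjustment, and Cpa3 and Cma1 had some of the highest coefficients. Pearson's r was 0.93 in homozygous tumours (n = 6, exact permutation p = 0.00972, adjusted p = 0.109), 0.92 in 18-month heterozygous tumours (n = 6, exact permutation p = 0.00417, adjusted p = 0.0938) and 0.51 in 9-month heterozygous tumours (n = 6, exact permutation p = 0.311, adjusted p = 0.538). Spearman's rho was 0.89, 0.94 and 0.37 in the same order of groups (n = 6 each, exact permutation p = 0.0333, 0.0167 and 0.497, all with an adjusted p of 0.25 or more). Without the 2 arrays farthest from the median of Cpa3, r was 0.75, 0.96 and 0.49. All 15 pairs of the 6 genes were computed in 3 groups, 45 relations in all, and after Benjamini-Hochberg adjustment none passed, against 7 at an unadjusted exact p under 0.05. With 6 arrays the smallest possible p is 0.00139. All genes of an array share the tissue composition of its specimen, which differed between arrays of a group. The part of that composition in these relations was not tested. The young heterozygous group, where r was lowest, also had the narrowest range of Cpa3.

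**Figure D2:**
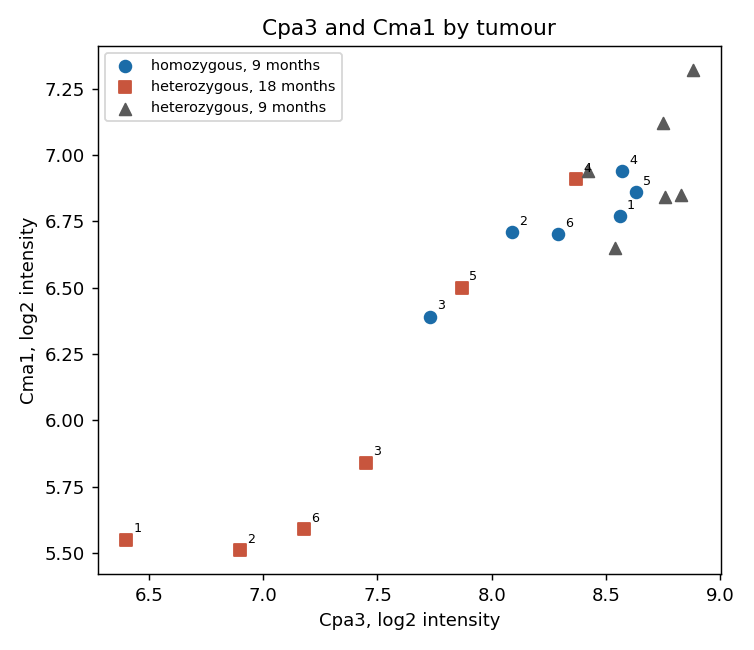
Cpa3 (horizontal) against Cma1 (vertical), both as log2 intensity, in 18 tumours, with replicate numbers beside the homozygous and the 18-month heterozygous points. Replicates 4 and 5 of the old group lie beside the 9-month tumours, and replicates 1, 2 and 6 lie lowest for Cma1, between 5.51 and 5.59.

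Some other pairs had coefficients as high or higher. Cpa3 and Tpsab1 had r = 0.94 in the old tumours (n = 6, exact permutation p = 0.00972, adjusted p = 0.109; rho 0.94; r = 0.75 without the 2 farthest arrays), 0.66 in homozygous tumours and 0.18 in young heterozygous ones. Tpsb2 and Ms4a2 had r = 0.89 in homozygous tumours (n = 6, exact permutation p = 0.00278, adjusted p = 0.0938; rho 0.99; r = 0.98 without the 2 farthest arrays), 0.80 in old and 0.65 in young heterozygous tumours. Mcpt4, near the bottom of the scale, had r = -0.70, -0.25 and -0.82 with Cpa3 in homozygous, old heterozygous and young heterozygous tumours (exact permutation p of 0.122, 0.647 and 0.0528). With Cma1 it had r = -0.91, -0.40 and -0.64 in the same order (exact permutation p of 0.0208, 0.45 and 0.164). The first of these had an adjusted p of 0.188, and r was -0.41 without the 2 farthest arrays.

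The genes most like Cpa3 and Cma1 were sought among the 11366 other genes tested, by Pearson's r with the mean of the pair after group means had been subtracted. Over 18 arrays the highest r, 0.96, belonged to Mcpt1l1, the granule chymase shown above. It was followed by Il17re, an interleukin 17 receptor chain, Dsc3, a desmosomal cadherin, Rab13, a GTPase of tight junction traffic, Thap4, Ddah2, a hydrolase of methylated arginine, Phgdh, the first enzyme of serine synthesis, and Eef2k, the kinase of elongation factor 2, with r from 0.94 down to 0.93. The SDs of Cpa3 and Cma1, given above for old and young heterozygous tumours, were larger in the old group, which thus weighs most in these coefficients. Over the 12 arrays of 9 months the 8 highest were Chrm4, Cd48, Sh3yl1, Lamtor5, Efna5, Bdh2, Cdc34 and Slc25a1, with r from 0.90 to 0.87. Cd48 encodes a surface protein of blood cells and Chrm4 a muscarinic receptor. The 2 lists of 8 shared 0 genes, although Mcpt1l1 had r = 0.87 over the 12 arrays too, equal after rounding to the lowest of the 8 there. These r values rank genes and carry no test.

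Genes tied to mast cells by role, outside the 6, were read from 5 lists drawn up with earlier results of these data known. The lists also hold a ligand, receptors, inhibitors and genes not limited to mast cells. Their counts therefore do not measure mast cell expression alone. Of 67 genes 59 had a probe set of their own and 38 were tested. Between old and young heterozygous tumours 13 fell (34.2%) and 4 rose (10.5%) by limma at an adjusted p under 0.05, against 22.4% and 21.6% of all genes tested. Their median difference was -0.13, against -0.005 for all genes. Between homozygous and heterozygous tumours of 9 months limma called 0 of the 38 (0% of all genes), with 4 at an unadjusted p under 0.05 and a median of -0.11. The age counts of each list below stand against the same 22.4% and 21.6% of all genes, and no list was tested as a set.

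Of the other granule serine proteases 3 of 16 were tested, and 1 fell. Mcpt1l1 measured 8.73, 9.47 and 9.67 (lowest, median, highest) in homozygous tumours, 6.59, 7.78 and 9.56 in 18-month heterozygous tumours and 9.47, 9.65 and 9.84 in 9-month heterozygous tumours. It fell by 1.66 (SE 0.37, limma adjusted p = 0.0023) with age, and 5 of 6 old tumours lay below all young heterozygous ones, replicate 4 again being the exception. Without replicates 4 and 5 the difference was -2.31. Granzyme B (Gzmb), a protease of cytotoxic lymphocytes, differed by -0.06 (SE 0.26, limma adjusted p = 0.873) over all arrays. In 5 of 6 old tumours it lay below every young heterozygous one, between 8.03 and 8.31, while old replicate 6, which also had the highest T and NK cell list mean, was at 10.11. Without that array Gzmb differed by -0.39 (SE 0.08, limma adjusted p = 0.00225). Leaving out any other old array or young replicate 5 gave -0.03 to 0.03. The tryptase Tpsg1 differed by -0.05 (SE 0.07, limma adjusted p = 0.574), and by -0.08 to 0.00 with single arrays left out.

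Of the receptors and signalling genes 9 of 16 were tested, and 5 fell. Syk, the kinase activated by the IgE receptor, measured 7.21, 7.87 and 8.03 in homozygous tumours, 6.51, 7.16 and 7.63 in 18-month heterozygous tumours and 7.85, 7.93 and 8.01 in 9-month heterozygous tumours. It fell by 0.82 (SE 0.17, limma adjusted p = 0.0017) with age. In 6 of 6 old tumours it lay below every young heterozygous one, as did 9% of all genes tested. Il1rl1, the receptor of the alarmin interleukin 33, fell by 0.88 (SE 0.22, adjusted p = 0.00483), Il3ra, a chain of the interleukin 3 receptor, by 0.53 (SE 0.16, adjusted p = 0.015) and the phospholipase Plcg2 by 0.32 (SE 0.10, adjusted p = 0.0143). Kit, the growth factor receptor that defines the lineage but is not limited to it, measured 6.67, 6.87 and 7.10 in homozygous, 6.51, 7.08 and 7.51 in 18-month heterozygous and 6.77, 6.84 and 6.94 in 9-month heterozygous tumours. It differed by 0.19 with age (SE 0.12, limma adjusted p = 0.217), with 4 of 6 old tumours above all young heterozygous ones. Without old replicate 3, the lowest, Kit was 0.29 higher (SE 0.10, limma adjusted p = 0.0257), and without old replicate 2 the difference was 0.09. Fcer1a, the IgE-binding chain, was under the limit for testing and differed by -0.37 (SE 0.09). Syk and Plcg2 are also expressed by other blood cells.

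Of the genes for storage and mediators 9 of 12 were tested, 2 fell and 2 rose. Serglycin (Srgn), the core protein on which the proteases are packed, measured 9.09, 9.34 and 10.07 in homozygous tumours, 7.67, 9.00 and 9.54 in 18-month heterozygous tumours and 9.68, 9.69 and 9.94 in 9-month heterozygous tumours. It fell by 0.92 (SE 0.25, limma adjusted p = 0.00772). All 6 old tumours lay below the young heterozygous ones, as they did for 9% of all genes tested. Ptgs1, a cyclooxygenase of prostaglandin synthesis, fell by 1.50 (SE 0.47, adjusted p = 0.0166), and its difference was -2.27 without replicates 4 and 5. Ndst2, which sulphates granule heparin, rose by 0.19 (SE 0.06, adjusted p = 0.0151). In 6 of 6 old tumours it lay above every young heterozygous one, as did 9.07% of all genes tested. Cd63, a membrane protein of granules and lysosomes in many cells, rose by 0.46 (SE 0.14, adjusted p = 0.0145), or 0.72 without replicates 4 and 5. Hdc, the enzyme that makes histamine, did not follow the proteases. It differed by 0.86 (SE 0.55, limma adjusted p = 0.216), with 10.11 and 8.93 in old replicates 1 and 2 and 8.83 in homozygous replicate 3, where Cpa3 was at 6.40, 6.90 and 7.73. Without old replicate 1 the Hdc difference was 0.37.

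Of the growth and transcription factors 7 of 10 were tested, 2 fell and 1 rose. Kitlg, the Kit ligand, fell by 0.48 (SE 0.17, limma adjusted p = 0.0336) and Gata2 by 0.38 (SE 0.13, adjusted p = 0.0268), while Stat5b, a transducer of cytokine signals, rose by 0.19 (SE 0.06, adjusted p = 0.0239). Leaving out single arrays ended each of these 3 calls. Kitlg missed the threshold without young heterozygous replicate 1, 3, 4 or 5 (-0.46, -0.46, -0.47 and -0.47) and without old replicate 3 or 6 (-0.44 and -0.35). Gata2, at -0.58 without old replicates 4 and 5, missed it without young replicate 5 (-0.36) or old replicate 1, 2 or 3 (-0.32, -0.34 and -0.35). Stat5b missed it without young replicate 4 (0.16) or old replicate 3 or 6 (0.17 each), and after a further quantile normalization (0.16).

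Among the activator, substrates, receptor and inhibitors of these proteases 10 of 13 were tested, 3 fell and 1 rose. Ctsc, the dipeptidyl peptidase that removes the activation peptide of granule serine proteases, fell by 0.99 (SE 0.19, limma adjusted p = 0.001). Agtr1a, the receptor of angiotensin II, a peptide that chymases can release, fell by 1.34 (SE 0.26, adjusted p = 0.00115), and Lxn, the carboxypeptidase inhibitor latexin, by 0.55 (SE 0.10, adjusted p = 0.000891). For these 3 genes all 6 old tumours lay below every young heterozygous one, as they did for 9% of all genes tested. Serpina3n, a serine protease inhibitor, rose by 1.21 (SE 0.42, adjusted p = 0.0274) in a wide spread, with 3 of 6 old tumours above all young heterozygous ones. It missed the threshold without young replicate 1 or 3 (1.11 and 1.16) or old replicate 1, 3 or 6 (1.14, 0.96 and 0.92), and with only the 2 groups in the fit (1.22).

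**Figure D3:**
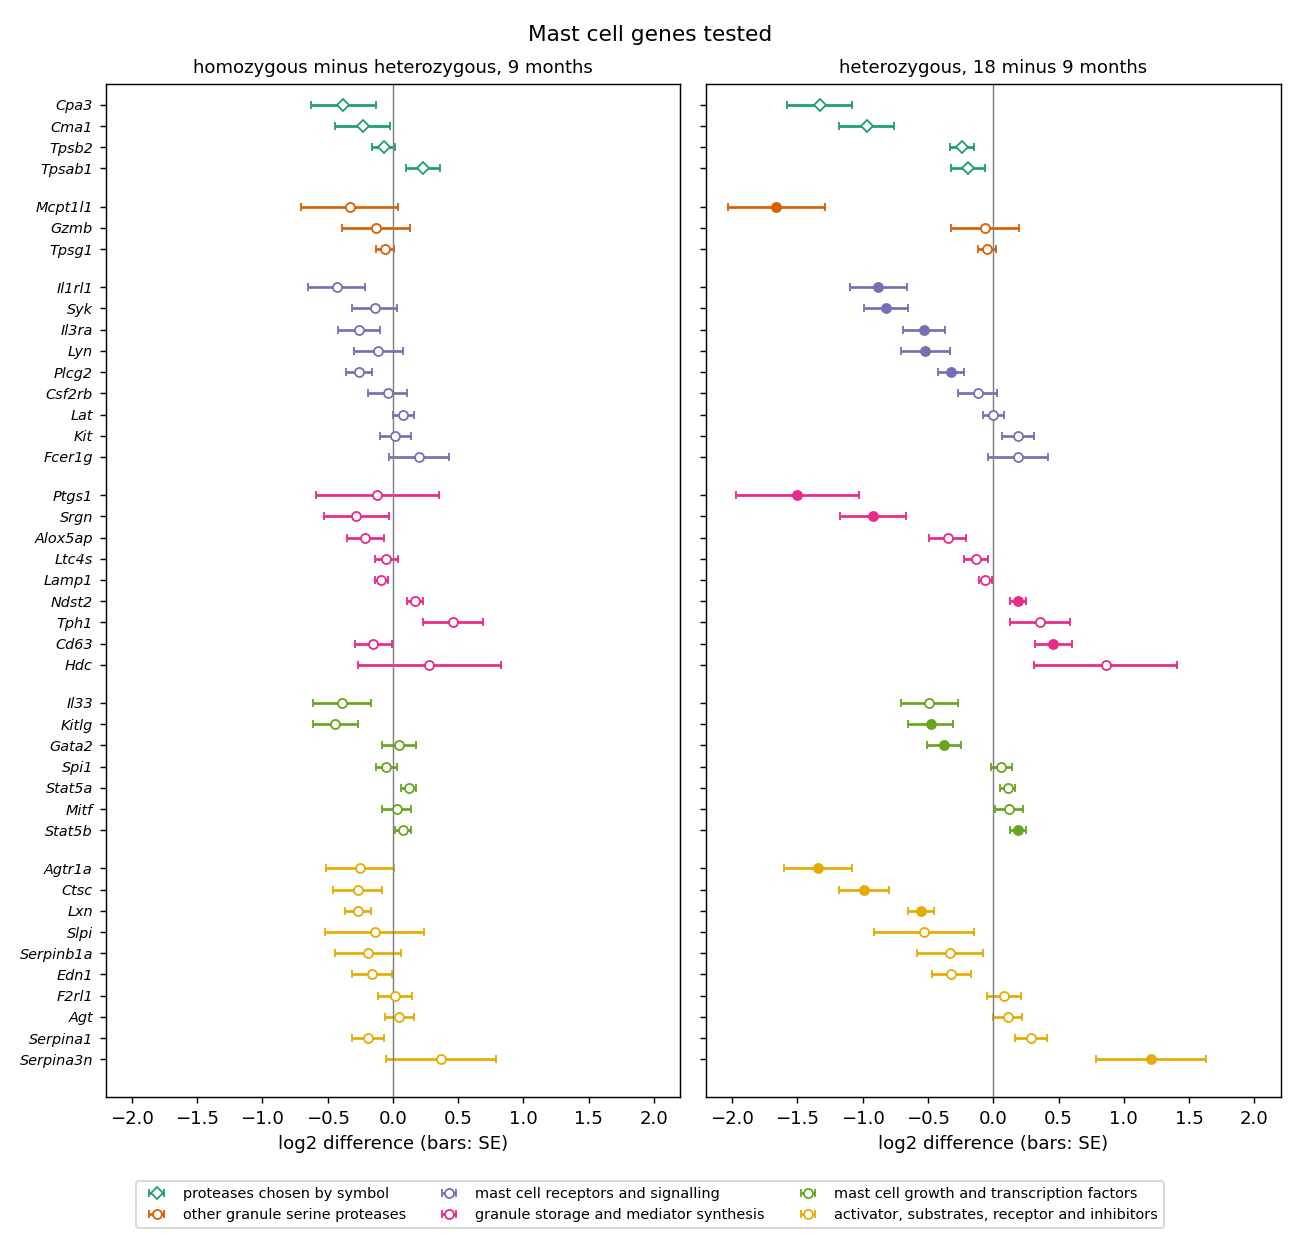
Log2 differences (points, with SE as bars) of the mast cell genes tested, in homozygous against heterozygous tumours of 9 months (left) and in heterozygous tumours of 18 against 9 months (right), coloured by list. Filled points passed the limma test at an adjusted p under 0.05; the diamonds of the right panel were not tested. No point is filled on the left, and on the right 13 filled points lie below 0 and 4 above.

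Markers of other tissue moved with Cpa3 and Cma1. Of 15 endothelial genes 14 fell with age, among them Cdh5 by 0.78 (SE 0.17, limma adjusted p = 0.00238) and Sox17 by 0.57 (SE 0.13, adjusted p = 0.00243). The mean of this list ran from 8.85 to 9.71 in homozygous, from 7.92 to 9.52 in 18-month heterozygous and from 9.49 to 9.69 in 9-month heterozygous tumours. Of 9 follicular genes 8 fell, with Duox1, an oxidase of hormone synthesis, at -2.56 (SE 0.52, adjusted p = 0.00126). This list mean ran from 10.44 to 11.46 in homozygous, from 7.49 to 11.24 in 18-month heterozygous and from 11.46 to 11.54 in 9-month heterozygous tumours. Of 9 adipocyte genes 9 fell, among them the regulator Pparg by 1.07 (SE 0.24, adjusted p = 0.00235), and the list mean ran from 8.02 to 9.02, from 7.01 to 8.43 and from 8.02 to 9.42 in the same order of groups.

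The fibroblast and matrix list was divided, with 4 of 14 genes lower, 3 higher and list means of 8.68 to 8.95, 8.72 to 9.04 and 8.99 to 9.22 in that order of groups. Its members Pdgfra, a receptor of platelet-derived growth factor, and Thy1, a surface glycoprotein, differed by -1.14 (SE 0.21, limma adjusted p = 0.00092) and 0.68 (SE 0.11, adjusted p = 0.00042). C cell genes rose in 9 of 11 cases. Lymphocyte and macrophage markers did not move as one: of 8 T and NK cell genes 0 passed, and of 12 macrophage genes 2 fell and 3 rose. Basophils and eosinophils share granule genes with mast cells, and of 3 of their genes tested 1 fell, while the eosinophil receptors Ccr3 and Il5ra averaged 4.35 and 4.34 over all arrays, near the bottom of the scale. Of 10 skeletal muscle genes 1 fell, of 4 parathyroid genes 2 fell and 1 rose, and of 3 neutrophil genes 0 passed. Median differences with age were nonetheless -1.73 for the muscle and -2.2 for the parathyroid list, in a wide spread. The muscle list mean ran from 7.19 to 11.62, 7 to 10.5 and 9.3 to 11.32 in the same order of groups. That of the parathyroid list ran from 8.67 to 12.46, 8.23 to 12.4 and 9.34 to 12.37. By limma, 22.4% of all genes fell and 21.6% rose.

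**Figure D4:**
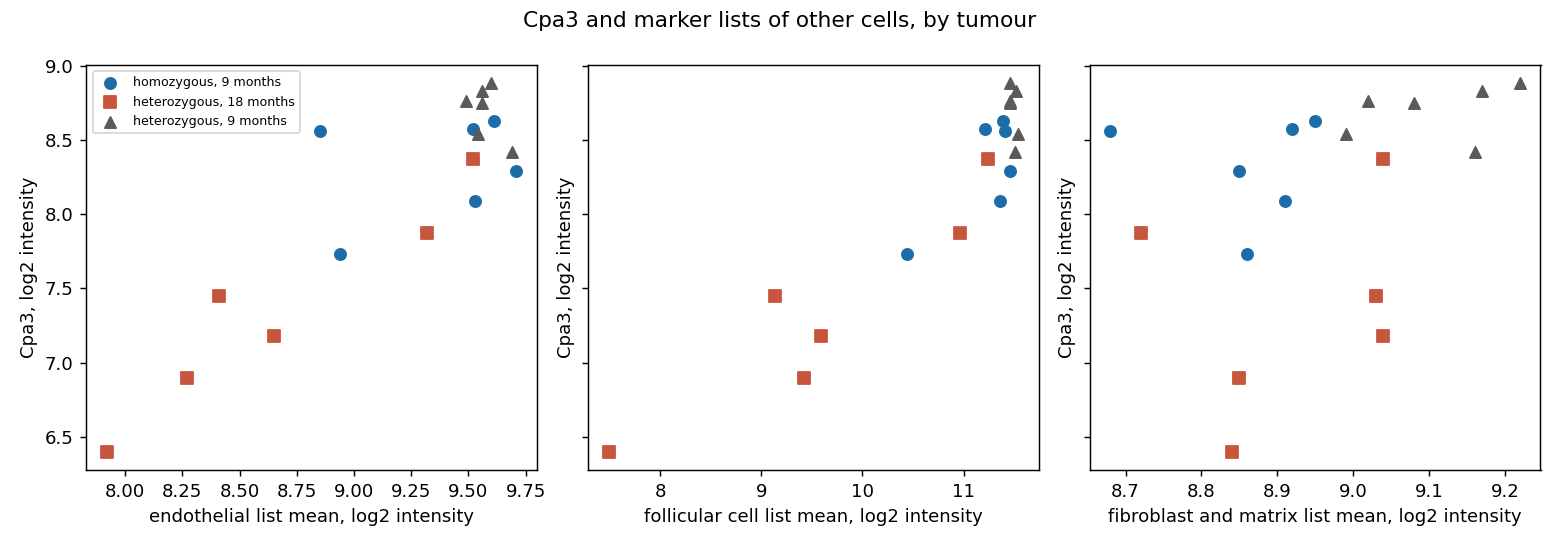
Cpa3 (vertical) against the mean of endothelial, follicular and fibroblast marker lists (horizontal, left to right), all as log2 intensity, in 18 tumours. Old replicate 1 is lowest for Cpa3 and for the endothelial and follicular means (7.92 and 7.49), and old replicates 4 and 5 lie near the 9-month tumours on both. The fibroblast means show no such order.

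In old replicates 4 and 5, where Cpa3 was highest, the endothelial mean was 9.52 and 9.32 and the follicular mean 11.24 and 10.96. In old replicate 1, with the lowest Cpa3, they were 7.92 and 7.49. With the follicular list mean as a covariate the age difference of Cpa3 was -0.42 (SE 0.19) and that of Cma1 -0.32 (SE 0.20). With the endothelial mean they were -0.58 (SE 0.23) and -0.34 (SE 0.18), with the adipocyte mean -0.76 (SE 0.28) and -0.59 (SE 0.25), and with the fibroblast mean -1.20 (SE 0.32) and -0.86 (SE 0.26). Each covariate other than the fibroblast mean made both differences smaller by over 1.5 times and left their sign. Tpsab1 turned to 0.06 (SE 0.17) with the endothelial and 0.23 (SE 0.13) with the follicular mean. The covariates differ between the same groups, so the part of residual thyroid tissue and the part of age in these differences cannot be told apart.

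**Figure D5:**
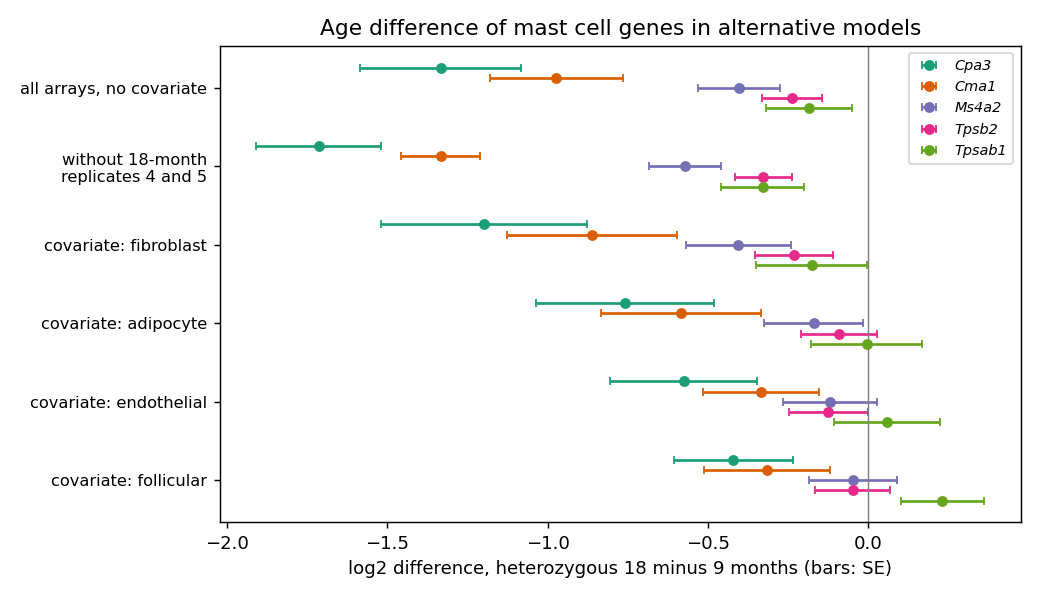
Log2 difference of 5 mast cell genes between heterozygous tumours of 18 and 9 months (points, with SE as bars) with all arrays, without old replicates 4 and 5, and with each marker list mean as a covariate. Cpa3 runs from -1.71 without the 2 arrays to -0.42 with the follicular mean, and Tpsab1 lies on both sides of 0.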

How the data were processed

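RNA of 18 tumours was measured on Affymetrix arrays. Per the labels' protocols, RNeasy Mini columns with DNase served for RNA and NuGEN kits for amplification and biotin label. The authors deposited 1 table of log2 intensity per probe set, and the submitters' processing notes name RMA and Affymetrix Expression Console 1.3.0.187 without order or role. The deposited values are taken as RMA log2 intensities from those notes and their range. The table held 29214 probe sets. Platform annotation gave 1 symbol to 15310, several to 323 and none to 13581, and only the first kind was named. For a gene with several probe sets, the one with the highest mean stood for it. Array medians lay between 7.55 and 7.65. Precision is limited by the number of arrays.

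Groups and replicate numbers came from the titles. A model of 3 group means was fitted with limma 3.58.1 (lmFit, eBayes) in R 4.3.3, with Benjamini-Hochberg adjustment over 11370 genes and a threshold of 0.05, two-sided. Every SE and adjusted p of a gene comes from limma. Correlations within groups used exact two-sided permutation of all 720 pairings (Python 3.11.15). The fit was tested on simulated arrays.

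The genes, lists and tests were chosen with earlier results of these data known. Named were the 6 genes, up to 4 genes per mast cell list past the age test with the smallest p, up to 2 per marker list, and the 8 most similar genes in each search. Genes named outside this rule were chosen after their values were seen: Kit, Fcer1a, Hdc, Gzmb, Tpsg1, Mcpt10, Ccr3, Il5ra, Calca, Tg and the chromosome 15 proteases. Alternatives covered the filter, normalization, blocking, weights, covariates and single arrays. Promoter sequences are RefSeq's (GRCr8), and no coordinates of the array were used.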

Additional observations from a re-analysis of the deposited data

Results flagged for a closer look

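Of 51 sets of 6 tumours examined (the 6 genes and 11 marker list means in 3 groups), 8 had a highest or lowest tumour far from the others, where chance gives about 1 in 20. For the 6 genes this was Tpsb2 in the 18-month group, where replicate 4 measured 7.32 and the next tumour 6.98. The same replicate was highest for Cpa3, Cma1, Tpsab1 and Ms4a2.

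The other 7 were list means. In homozygous tumours the fibroblast mean was lowest in replicate 1 (8.68, the next 8.85), and in replicate 3 the follicular mean was lowest (10.44, the next 11.21) and the C cell mean highest (12.6, the next 11.74). That replicate also had the lowest Cpa3 and Cma1 of its group. In 18-month heterozygous tumours replicate 6 was highest for the macrophage mean (9.39, the next 8.78) and for the T and NK cell mean (8.09, the next 7.24), while its Cpa3 of 7.18 lay in the middle of the group. In 9-month heterozygous tumours replicate 1 was highest for the macrophage mean (8.89, the next 8.63) and lowest for the parathyroid mean (9.34, the next 11.64), and it had the lowest Cpa3 of that group (8.42). The part of these tissues in the values of the mast cell genes was not tested beyond the covariates reported.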

How the results depend on the processing

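With the replicate number as a block the age difference of Cpa3 stayed at -1.33. Of the genes in the mast cell lists 13 fell and 4 rose, as without the block, and it changed no call. The numbers showed no clear pairing of the samples. Same-numbered arrays of different groups had correlations of their deviations between -0.29 and 0.35, with 7 of 18 over 0.1. Of 18 arrays, 2 correlated best with their own number. This check cannot tell whether same-numbered arrays shared a weak link. No genotype call arose for Cpa3, Cma1, Tpsb2 or Tpsab1 under any alternative run, though a filter at the 50th percentile left only Cpa3 testable. In all of these runs 0 genes of the mast cell lists were called in that comparison. Leaving out each array in turn gave age differences of -1.54 to -1.14 for Cpa3, -1.16 to -0.88 for Cma1, -0.31 to -0.21 for Tpsb2, -0.27 to -0.079 for Tpsab1 and -0.49 to -0.31 for Ms4a2. The number of genes in the mast cell lists that fell ran from 11 to 18 and that of genes that rose from 2 (without old replicate 6) to 5. Without a filter 17 fell. With old replicates 4 and 5 left out together, which was chosen for the lists after seeing the data, 13 fell and 5 rose. Leaving out single arrays was also added after seeing the data for Kit, Hdc, Gzmb, Tpsg1, Fcer1a and the chromosome 15 proteases.

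Covariates moved the genotype and the age differences. The genotype differences of Cpa3 and Cma1 were -0.203 and -0.074 with the endothelial mean and -0.209 and -0.084 with the fibroblast mean. They were -0.255 and -0.14 with the adipocyte mean and -0.247 and -0.128 with the follicular mean. That of Tpsab1 was 0.242 to 0.295. For age, with the endothelial mean Cpa3 was at -0.576, Cma1 at -0.335, Tpsab1 at 0.059, Tpsb2 at -0.125 and Ms4a2 at -0.12. Homozygous minus old heterozygous tumours gave 0.373 for Cpa3 and 0.26 for Cma1. For age, with the adipocyte mean Cpa3 was at -0.758, Cma1 at -0.585, Tpsab1 at -0.005, Tpsb2 at -0.092 and Ms4a2 at -0.171. With the follicular mean Cpa3 was at -0.421, Cma1 at -0.315, Tpsab1 at 0.231, Tpsb2 at -0.049 and Ms4a2 at -0.049, and homozygous minus old heterozygous tumours gave 0.174 for Cpa3, 0.187 for Cma1, 0.063 for Tpsab1 and 0.005 for Ms4a2. The cause was not tested. Without the 2 farthest arrays r of Cpa3 with Tpsab1 in young heterozygous tumours was -0.16 and that of Tpsb2 with Ms4a2 was -0.20. Signal limits Mcpt4 and Ms4a2, which lay under the filter.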

Other observations

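By RefSeq, 11 of the granule serine proteases measured lie on chromosome 15, Cma1 and Mcpt4 among them. Between 18-month and 9-month heterozygous tumours the difference was -0.97 for Cma1 and -1.66 for Mcpt1l1. Gzmb, also tested, differed by -0.06 over all arrays and by -0.39 without old replicate 6. It was below every young heterozygous tumour in 5 of 6 old ones, a count for which no share over all genes is given. Mcpt1, Mcpt3, Mcpt8, Mcpt9, Ctsg and Gzmc, all under the limit for testing, differed by 0.28, 0.01, 0.09, 0.11, -0.06 and -0.03. The value of Mcpt1 rests on old replicate 1 (6.58) and was -0.06 without it, and the signs for Mcpt3 and Gzmc also turned when single arrays were left out. Mcpt10, a granule protease gene also under that limit, averaged 5.26 in homozygous, 5.18 in 18-month heterozygous and 5.87 in 9-month heterozygous tumours. All 6 old tumours lay below every young heterozygous one, and the 6 homozygous tumours, at 4.76 to 5.59, lay below them too (5.63 to 6.02). Among all genes tested, such a lack of overlap with lower values was found for 9% in old and 0.915% in homozygous tumours, and Mcpt10 was picked out after its values were seen. Probe sets whose annotation names several of these genes at once were not used.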
